A study of Homo sapiens with 6 samples.

Results

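The CDC-like kinases CLK1, CLK2, CLK3 and CLK4 were followed in an established line of human neuroblastoma cells, BE(2)-C, kept for 2 days in 10 µM NCT-503 or in its vehicle, DMSO. Both groups grew in DME/F-12 medium with 10% FBS. The compound NCT-503 inhibits PHGDH, the first enzyme of serine synthesis. Total RNA from 3 samples per group (replicates a, b and c) was measured on 6 single-colour Affymetrix whole-transcript arrays, 1 per sample. The samples are described as independent, but nothing says whether they were separate cultures, so the p-values measure only the spread between these samples. The members were taken by gene symbol, and the row of each gene was selected on its mean value over all 6 arrays, the highest being used. Each of the 4 genes had 1 named row, so 4 of the 15098 named rows, and 4 of the 14779 genes tested, belong to the family. No further named row of a CLK gene was there to be shown apart, and rows without a gene name were not searched. The choice of row did not use the difference between the groups, but the family itself was picked for description with earlier results of these data known.

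CLK proteins are dual-specificity kinases of the nucleus that share a sequence signature, the LAMMER motif. They phosphorylate the serine- and arginine-rich (SR) proteins that guide the choice of splice sites, and thereby release them from nuclear speckles, where splicing factors are stored. The related SRPK kinases phosphorylate SR proteins mainly in the cytoplasm, before import. CLK1 and CLK4 are the closest pair within the family, and both are known for transcripts that keep introns and stay in the nucleus until they are spliced on demand. The deposited values hold 1 named row for each CLK gene, so spliced and intron-retaining forms were not separated here.

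Over the whole table the array medians ran from 4.30 to 4.33 (log2). Correlations across genes, which are not independent replicates, ran from 0.992 to 0.994 between arrays of one group and from 0.968 to 0.969 between arrays of different groups. Of 10 noradrenergic neuroblastoma markers, 7 had a named row, and their DMSO means ran from 6.05 (TH) to 10.04 (DBH). Of these 7 markers, 3 rose, 2 fell and 2 did not pass the test described below, with changes from -0.30 to 0.75. Over all genes tested, 16.4% rose and 17.1% fell. The part of these markers in the CLK values was not tested. Of 8 markers of other cell types, EPCAM (epithelial) and ALB (liver) had a named row, with DMSO means of 4.98 and 3.14, and neither passed the test. These summed RNA values cannot tell a change in every cell from a change in the mix of cells.

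After NCT-503, CLK1, CLK4 and CLK3 transcripts rose, to 225%, 229% and 201% of the DMSO level, and CLK2 fell to 75.7%. No array of one group overlapped the other group in any of the 4 genes. A change is the NCT-503 mean minus the DMSO mean of the log2 values, given with its standard error (SE) from limma. A gene was called at a Benjamini-Hochberg adjusted p under 0.05 over all 14779 genes. All 4 CLK genes were called, against a background of 33.5% of all genes. The background was 16.4% for higher calls, which 3 of the 4 members had, and 17.1% for lower calls, which only CLK2 of the 4 had. The 3 members that rose also belonged to the 1.06% of genes (157) that were called and at least 2-fold higher. Groups without overlap were common in the whole table, with 25.4% of genes higher and 22.4% lower in all 3 NCT-503 arrays, so the lack of overlap alone does not set the family apart.

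**Figure D1:**
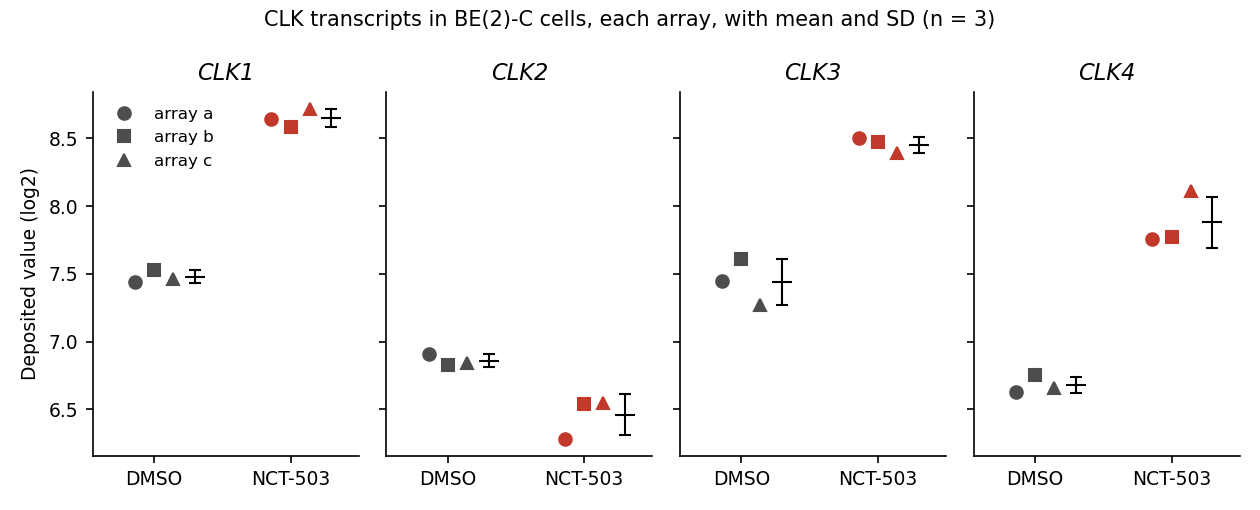
Deposited log2 values of CLK1, CLK2, CLK3 and CLK4 on each of the 6 arrays, grey for DMSO and red for NCT-503, with marker shapes for replicates a, b and c and the group mean and SD (n = 3) at the right of each group. CLK1 rises from 7.48 to 8.65, CLK3 from 7.44 to 8.45 and CLK4 from 6.68 to 7.88, whereas CLK2 lies at 6.86 with DMSO and 6.46 with NCT-503.

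CLK1 is the kinase after which the family's action on SR proteins was mainly worked out. Its deposited log2 values were 7.44, 7.53 and 7.46 with DMSO (replicates a, b and c) and 8.64, 8.58 and 8.72 with NCT-503. Both groups were tight, and the lowest NCT-503 array lay 1.05 above the highest DMSO array. The mean rose from 7.48 ± 0.05 to 8.65 ± 0.07 (SD, n = 3 each), a change of 1.17 ± 0.08 (SE, 95% confidence interval 0.99 to 1.35, adjusted p = 8.23e-05 by limma). That is 2.25-fold (95% interval 1.99 to 2.55) and the 94th largest rise of all genes tested.

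CLK4, the closest relative of CLK1, gave 6.63, 6.75 and 6.66 with DMSO and 7.76, 7.77 and 8.11 with NCT-503. NCT-503 replicate c stood above the other treated arrays, and every treated array was at least 1.01 above every control array. The change was 1.20 ± 0.11 (SE, 95% interval 0.94 to 1.46, adjusted p = 0.000296 by limma), or 2.29-fold (1.91 to 2.74), the 89th largest rise. Without NCT-503 replicate c it was 1.08, still a call.

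CLK3 was measured at 7.45, 7.61 and 7.27 with DMSO and at 8.50, 8.47 and 8.39 with NCT-503. Here the spread lay in the controls (SD 0.17 against 0.06 in the treated arrays), and the gap between the groups was 0.77. CLK3 rose by 1.01 ± 0.10 (SE, 95% interval 0.77 to 1.25, adjusted p = 0.000442 by limma), or 2.01-fold (1.70 to 2.38), the 150th largest rise. The gene CLK3-AS1 overlaps CLK3 in RefSeq and had no named row here, and 2 pseudogene copies, CLK3P1 and CLK3P2, lie elsewhere. Whether their RNA adds to the CLK3 value was not tested.

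CLK2 went the other way, with 6.91, 6.83 and 6.84 with DMSO and 6.28, 6.54 and 6.55 with NCT-503. The lowest treated value was that of replicate a, and the gap between the groups was 0.28. CLK2 fell by 0.40 ± 0.10 (SE, 95% interval -0.63 to -0.18, adjusted p = 0.0160 by limma), and 14.4% of all genes tested fell further. The call was lost without DMSO replicate a (change -0.38, adjusted p = 0.0565) and held when any other single array was left out (-0.31 without NCT-503 replicate a to -0.45 without NCT-503 replicate c). A transcribed pseudogene copy, CLK2P1, had no named row here, and its part in the CLK2 value was not tested.

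**Figure D2:**
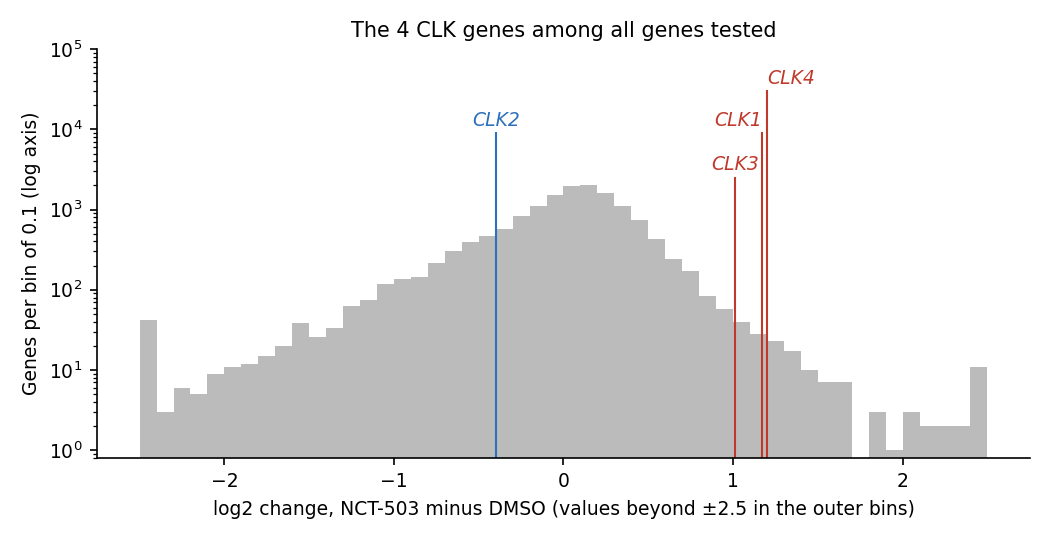
Histogram of the log2 change, NCT-503 minus DMSO, of all 14779 genes tested, with the count per bin on a log axis and vertical lines at the CLK genes. CLK3 (1.01), CLK1 (1.17) and CLK4 (1.20) lie in the thin right tail, and CLK2 (-0.40) lies on the left shoulder.

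The members were then set against each other on the same arrays, by the log2 value of one gene minus that of another. Because each row has its own probes, only the change of such a difference between the groups can be read, not its level. The SE of these pair values comes from the spread of the difference within each group, not from limma. CLK1 minus CLK2 was 0.52, 0.70 and 0.63 with DMSO and 2.36, 2.04 and 2.17 with NCT-503, so that CLK1 changed by 1.57 ± 0.11 (SE) more than CLK2. Leaving out single arrays kept this difference between 1.49 and 1.65. The change of CLK2 minus that of CLK3 was -1.41 ± 0.15, and minus that of CLK4 it was -1.60 ± 0.11. In these 3 pairs the groups did not overlap. Each gave p = 0.10 in the exact permutation test (two-sided), the smallest p that 3 against 3 arrays allow. After Benjamini-Hochberg adjustment over the 6 pairs compared, that permutation p was 0.20. Both outcomes were fixed by the single genes, since CLK2 was lower and the other gene higher on every NCT-503 array. The test therefore adds nothing to the single-gene results, and only the sizes of these differences are new.

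Among the 3 members that rose, no pair separated. CLK1 minus CLK4 was 0.80, 0.78 and 0.80 with DMSO and 0.88, 0.81 and 0.61 with NCT-503, so their changes differed by -0.03 ± 0.08 (SE, exact permutation p = 1.00). CLK1 changed by 0.16 ± 0.11 more than CLK3 (exact permutation p = 0.30). The change of CLK3 minus that of CLK4 was -0.19 ± 0.16 (exact permutation p = 0.40). The groups overlapped in these pairs, and the test does not show that the 3 genes changed by the same amount.

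RefSeq start regions show how the family differs in sequence ahead of its genes. All 4 genes matched, with 6 start regions in all, since CLK1 and CLK3 each have 2. The 250 bases ahead of each start (assembly GRCh38.p14) were searched for the letters TGACG on either strand (read as CGTCA on the opposite one), the core of the cyclic AMP response element that CREB and ATF proteins bind. They are shown because 3 members moved together and CLK2 did not. The motifs were chosen with these sequences in view and after the changes were known. A match between the core and the direction of change is therefore no test of a link, and a link was not tested. Capitals mark the core, each sequence runs 5′ to 3′ on the gene's strand, and only 30 bases are given for CLK3, whose start region overlaps CLK3-AS1. CLK1 lies at chr2:200864659-200864908, CLK4 at chr5:178627051-178627300 and CLK2 at chr1:155273505-155273754, all on the minus strand, and the CLK3 stretch at chr15:74615780-74615809 on the plus strand.
CLK1: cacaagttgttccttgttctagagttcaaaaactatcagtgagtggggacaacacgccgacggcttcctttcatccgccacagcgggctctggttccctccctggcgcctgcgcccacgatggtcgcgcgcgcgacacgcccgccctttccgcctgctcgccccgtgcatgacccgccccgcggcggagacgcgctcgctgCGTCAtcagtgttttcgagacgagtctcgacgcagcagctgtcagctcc
CLK4: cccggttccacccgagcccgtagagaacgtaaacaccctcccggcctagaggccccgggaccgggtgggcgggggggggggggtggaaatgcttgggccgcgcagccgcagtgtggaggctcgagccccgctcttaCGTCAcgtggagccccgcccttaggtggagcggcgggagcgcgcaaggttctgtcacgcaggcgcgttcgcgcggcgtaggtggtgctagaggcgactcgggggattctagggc
CLK3: tggcgacggctgCGTCAcgcgagggggcgg
CLK2: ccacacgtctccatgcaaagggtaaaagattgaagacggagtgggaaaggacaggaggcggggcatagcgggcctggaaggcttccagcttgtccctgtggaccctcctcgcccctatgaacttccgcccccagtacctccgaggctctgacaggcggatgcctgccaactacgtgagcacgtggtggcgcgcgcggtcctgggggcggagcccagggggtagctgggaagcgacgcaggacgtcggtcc

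The core occurred 1 time ahead of CLK1, 49 bases before its outer start, where it reads CGTCA. The second CLK1 region overlaps the first and holds the same copy, 146 bases before its start. CLK4 had 1 core, 114 bases before its start, and CLK3 had 1 in its inner region, 44 bases before that start, and none in its outer region. CLK2 had none. Of all 35116 RefSeq start regions of this length, 21.2% held the core, so its presence in 4 of the 6 CLK regions is a description of these letters and shows no binding.

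The E-box CACGTG, which MYC-family factors bind, occurred ahead of CLK2 and ahead of CLK4, where it shares 2 bases with the core, against 6.34% of all regions. The CCAAT box occurred 2 times in the outer CLK3 region and in no other CLK region (32.0% of all regions). The full element TGACGTCA (1.65%), the ATF4 composite element TGATGNAA (3.14%) and the heat shock element GAANNTTC (5.78%) were not in these windows of any CLK gene.

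SR proteins, the substrates of the CLK kinases, bind exonic enhancers and recruit the spliceosome, and 12 of the 14 SR and TRA2 genes listed had a named row. Of these 9 fell, against 17.1% of all genes, SRSF12 rose, against 16.4%, and SRSF4 (0.11) and SRSF11 (-0.19) did not pass, with a median change of -0.64 against 0.06 over all genes tested. SRSF1, the founding member, was measured at 10.93, 10.99 and 10.98 with DMSO and at 9.26, 9.18 and 9.22 with NCT-503, and fell by 1.75 ± 0.07 (SE, adjusted p = 1.20e-05 by limma). SRSF6 fell by 1.68 ± 0.09, SRSF5 by 1.16 ± 0.10 and TRA2B, an SR-like activator of exon inclusion, by 0.96 ± 0.08. The SRSF12 rise (0.28 ± 0.07, adjusted p = 0.0207 by limma) was lost with a replicate block and without DMSO replicate b, DMSO replicate c or NCT-503 replicate b.

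**Figure D3:**
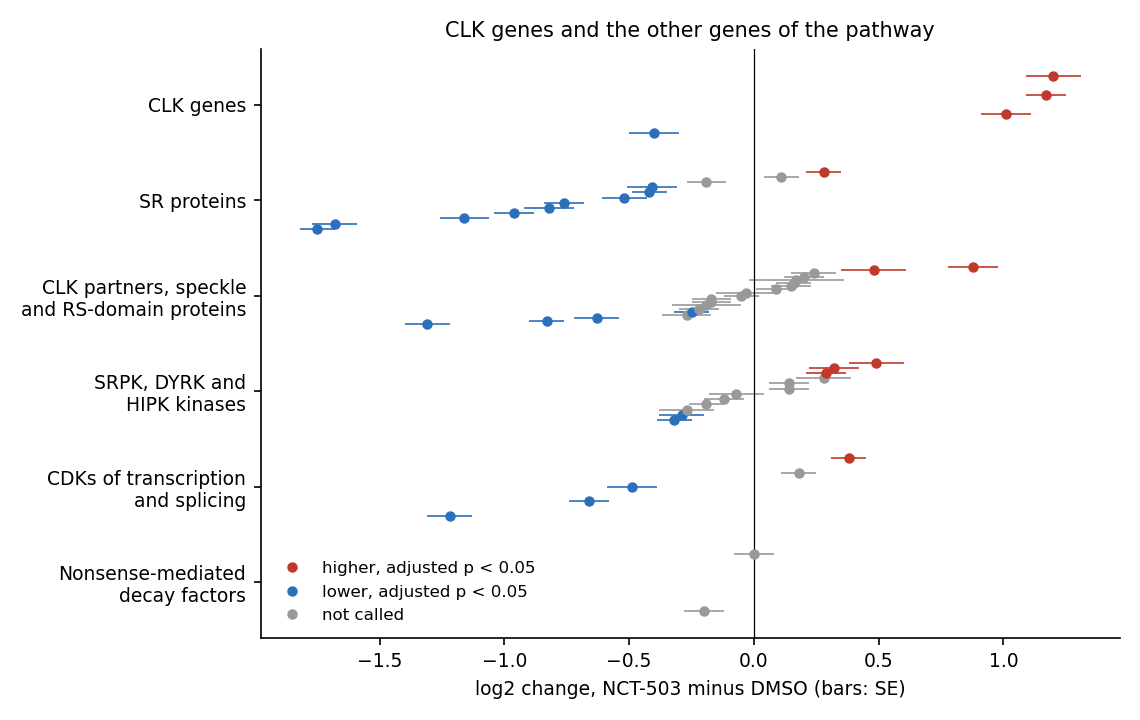
Log2 change, NCT-503 minus DMSO, of the CLK genes and of the measured members of 5 lists of related genes, 1 point per gene with its SE, red for higher and blue for lower at an adjusted p under 0.05 and grey for genes not called. CLK1, CLK3 and CLK4 lie between 1.01 and 1.20, to the right of every point of the other lists, and the SR proteins reach from -1.75 to 0.28.

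Proteins that bind CLK kinases, sit in speckles or carry arginine- and serine-rich (RS) domains formed the longest list. Of 22 listed, 19 had a named row, 2 rose, 4 fell and 13 did not pass, with a median change of -0.05, while 33.5% of all genes were called. CLASRP, a CLK4-associated SR-rich protein, gave 6.19, 5.83 and 6.13 with DMSO and 6.64, 6.60 and 6.36 with NCT-503, and rose by 0.48 ± 0.13 (SE, adjusted p = 0.0223 by limma). That call was lost without DMSO replicate b, NCT-503 replicate a or NCT-503 replicate b. PPIG, a cyclophilin with an RS domain that binds CLK kinases, changed by 0.24 ± 0.09 and did not pass (adjusted p = 0.0894 by limma), though it did with eBayes trend and robust settings, with arrays centred on the 75th percentile and with dim genes left out.

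RSRC2, an RS-domain protein, had the largest rise of that list (0.88 ± 0.10, adjusted p = 0.000834 by limma). The falls were those of LUC7L3 (-1.31 ± 0.09), a U1 snRNP-associated factor, SON (-0.83 ± 0.07), the scaffold of speckles, ARGLU1 (-0.63 ± 0.09), a splicing coactivator, and U2AF1 (-0.25 ± 0.07), which reads the end of the intron. Of these calls only that of U2AF1 was lost under any alternative, in 10 of 15, among them each single array left out.

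The SRPK, DYRK and HIPK kinases and PRPF4B are near the CLK family in role or kinship. Of 13 listed, 12 had a named row and PRPF4B had none. Of these 12, 3 rose, 2 fell and 7 did not pass, while 33.5% of all genes were called. The changes of this list ran from -0.32 to 0.49, with a median of 0.03. SRPK1, the main cytoplasmic SR protein kinase, was at 8.86, 8.86 and 8.89 with DMSO and 8.58, 8.54 and 8.54 with NCT-503, a fall of 0.32 ± 0.07 (adjusted p = 0.0103 by limma). Its paralog SRPK2 rose by 0.29 ± 0.08 (adjusted p = 0.0252 by limma), a call lost without any 1 of DMSO replicates a, b and c and NCT-503 replicates b and c. HIPK4 rose by 0.49 ± 0.11. Its DMSO mean was only 4.36 and that of DYRK4 was 3.47, and both genes lay below the 50th percentile of mean level. DYRK4 (0.32 ± 0.10) rose and DYRK1B (-0.29 ± 0.09) fell, and each call was lost in 8 alternatives, for both of them without DMSO replicate a, DMSO replicate c, NCT-503 replicate a or NCT-503 replicate b.

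Cyclin-dependent kinases that act on RNA polymerase II or on splicing were also listed, and 5 of 6 had a named row. Of these 3 fell, 1 rose and 1 did not pass, while 17.1% of all genes fell and 16.4% rose. CDK13 and CDK12, which phosphorylate the polymerase tail during elongation, fell (-1.22 ± 0.09 and -0.66 ± 0.08), and CDK9, the kinase of pause release, fell too (-0.49 ± 0.10). CDK7, the kinase of initiation, rose by 0.38 ± 0.07 (adjusted p = 0.00582 by limma). CDK11A, whose copy CDK11B is nearly identical, changed by 0.18 and did not pass. Nonsense-mediated decay, which removes transcripts with early stop codons, was covered by UPF1 (-0.20) and UPF2, neither of which passed, and the other 8 listed factors were not analysed here. Phosphatases that act on SR proteins had no named row among the 7 listed and were not analysed here.

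The genes whose profiles lay closest to each CLK gene were found by the Euclidean distance between log2 profiles over the 6 arrays, after subtracting each gene's mean. For CLK1 they were BCL2 (distance 0.08, change 1.17), KPNA4 (0.08, 1.14) and GPCPD1 (0.10, 1.21). For CLK4 they were ZNF433 (distance 0.12, change 1.21), BCL2 (0.15, 1.17) and NEK7 (0.18, 1.16). KLHL28 (distance 0.11), EAPP (0.13) and FAXDC2 (0.13) were closest to CLK3, and CBR4 (0.08), PAPOLA (0.09) and LINC01000 (0.10) to CLK2. Within the family, CLK4 was the 21st closest gene to CLK1 (distance 0.20) and CLK1 the 6th closest to CLK4, while CLK3 was 75th from CLK1 (distance 0.33). These distances rest on 2 groups of 3 arrays and mainly reflect the size of the change.

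The neighbours of the CLK genes on their chromosomes were read in the same fit. Taking 2 protein-coding genes on each side in RefSeq order gave 16 neighbours, of which 10 had a named row, 2 rose, 4 fell and 4 did not pass, while 16.4% of all genes rose and 17.1% fell. Next to CLK1 on chromosome 2, PPIL3 rose by 0.34 ± 0.08 and BZW1 (-0.43 ± 0.08) and NIF3L1 (-0.61 ± 0.08) fell. Next to CLK2 on chromosome 1, SCAMP3 rose by 0.58 ± 0.10 while CLK2 fell. On chromosome 5, PHYKPL (-0.34 ± 0.09) and ZNF354A (-0.63 ± 0.17) fell near CLK4, and on chromosome 15 neither ARID3B (0.14) nor EDC3 (0.20) passed near CLK3.

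**Figure D4:**
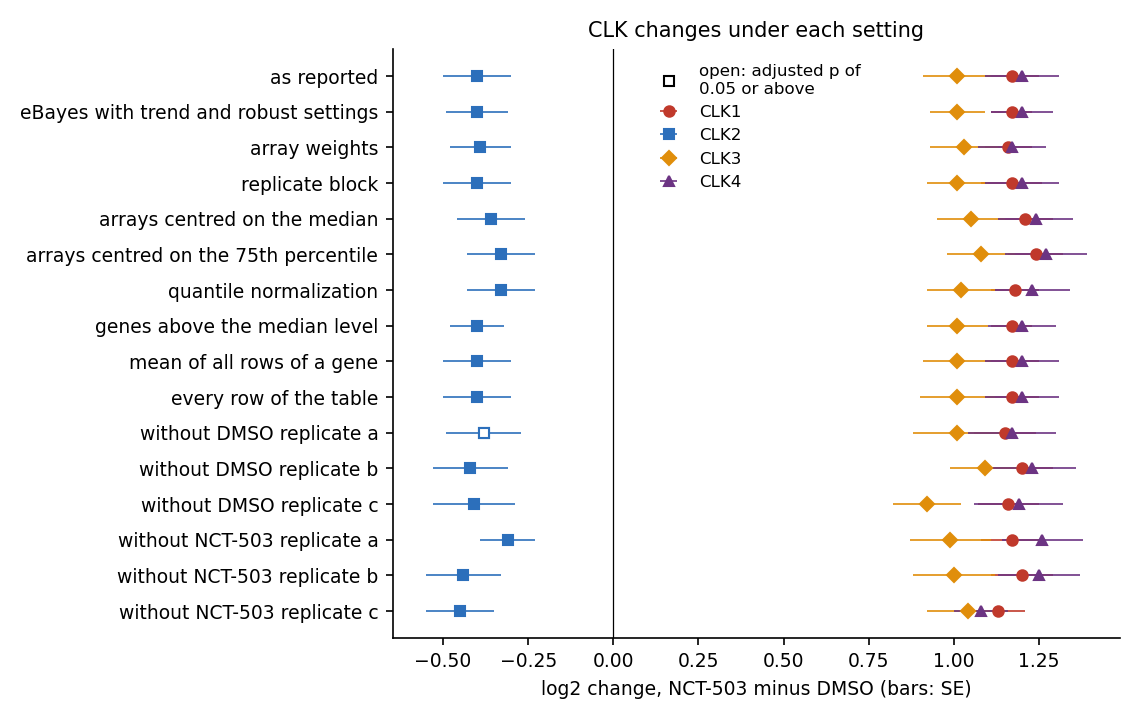
Log2 change of the 4 CLK genes, with SE, as reported and under 15 other settings of the fit, the scaling and the arrays used, with an open marker where the adjusted p is 0.05 or above. CLK1, CLK3 and CLK4 stay between 0.92 and 1.27, and CLK2 stays between -0.45 and -0.31 with 1 open marker, without DMSO replicate a.

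The scaling of the arrays was also varied. When the 75th percentile was set equal on all arrays, 3345 genes were higher and 2189 lower (60.4% of calls higher, against 48.8% for the 2419 and 2534 calls on the deposited scale). That centring moves every gene alike, by 0.07. Under it CLK1 changed by 1.24, CLK3 by 1.08, CLK4 by 1.27 and CLK2 by -0.33 (adjusted p = 0.0414 by limma, against 0.0160 on the deposited scale), and the direction and the call of each were kept.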

How the data were processed

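RNA of 6 samples, 3 per group, was measured on whole-transcript arrays. Partek was the authors' software, per the submitters' processing notes, while its version, the background correction and the normalization are unstated in the labels used here. Deposited values were read as log2, since they ran from 0.578 to 13.6 without missing cells. Without scanner values no row could be set against its background, and the number of arrays limits the precision.

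Of 31135 rows, 15098 had 1 gene symbol in the platform annotation, none had several, and all of these matched RefSeq by Entrez identifier; 16037 rows were not named. For 256 genes with several rows the one with the highest mean was used, leaving 14779 genes. Limma 3.58.1 in R 4.3.3 (lmFit, eBayes, no covariates, two-sided) was fitted to all of them and tested on simulated data. Exact permutation tests used scipy 1.17.1. Motif windows came from RefSeq tables of GRCh38.p14; the motifs were chosen with the sequences in view.

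The CLK genes and the gene lists were chosen with earlier results of these data known. Named beside the CLK genes were PHGDH, as the target of the compound, and CLASRP and PPIG in any case. Up to 4 called members per list and direction with the largest change, and the 3 closest profiles of each member, were named too. Neighbours, and members completing small counts, were named after their values were seen. Alternatives were another moderation, array weights, a replicate block, 3 scalings, a filter on genes below the 50th percentile of mean level (dim genes), other treatments of rows, each array left out, and an adjusted p under 0.01.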

Additional observations from a re-analysis of the deposited data

How the results depend on the processing

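Under 15 alternatives the changes of CLK1 (1.13 to 1.24), CLK3 (0.92 to 1.09) and CLK4 (1.08 to 1.27) kept their direction and their call, and they also passed an adjusted p under 0.01. CLK2 (-0.45 to -0.31) kept its direction in all of them, lost its call without DMSO replicate a (-0.38), and its -0.40 did not pass an adjusted p under 0.01. Leaving out single arrays gave -0.45 to -0.31 for CLK2. Whether samples with the same letter (a, b or c) were handled together is not stated in the labels used here. Same-lettered arrays correlated by 0.00, 0.00 and 0.04 in their deviations from the group means, against -0.03 to 0.03 for other pairs. These values show no clear effect of the letter, but so few arrays cannot exclude pairing. With the replicate block 2108 genes were higher and 2327 lower. All 4 CLK calls were kept with that block (CLK2 -0.40, adjusted p = 0.0420 by limma), and no SR protein was called higher (0). Of the 33 other genes given by the naming rule, 26 stayed on their side of adjusted p 0.05 in every refit that tested them. None reversed, and HIPK4 and DYRK4 were not tested with dim genes left out. Among the 33 was PHGDH, whose transcript rose by 0.97 ± 0.09 (SE, adjusted p = 0.000299 by limma).

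At the stricter threshold of 0.01, 1226 genes were higher and 1682 lower, and 0 SR proteins were higher, 0 and 0 SRPK, DYRK and HIPK kinases were higher and lower, and 1 partner or RS-domain gene was higher. With eBayes trend and robust settings, and with dim genes left out, 4 of those kinases were lower, and 5 and 7 partner genes were higher and lower. With dim genes left out 1 kinase was higher, because HIPK4 and DYRK4 were not tested, and 2 CDKs were higher. Over all genes, the eBayes settings gave 2658 higher and 2816 lower. Leaving out dim genes gave 2153 and 2377 among the fewer genes tested, so larger list counts there are no result about the lists. With array centring on either the median or the 75th percentile, with quantile normalization, or with every row tested, 1 kinase was lower. Higher were 4 partner genes with the 75th percentile, and 2 CDKs with that or with quantile normalization. Over all genes these 4 settings gave, in that order, 2990, 3345, 2490 and 2069 higher and 2321, 2189, 2399 and 2312 lower. Leaving out single arrays gave 0 to 1 SR proteins higher, 1 to 3 kinases higher, 1 to 2 lower, and 1 to 2 partner genes higher. Over all genes it gave 1749 to 2100 higher and 2103 to 2266 lower. Causes were not tested.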
